A study of Mus musculus with 12 samples.

Results

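The experiment described here followed CD8+ T cells from mouse spleen in which Senp1 had been deleted (Senp1 CKO) through 48 h of stimulation. It held 6 of the 12 libraries of the series: 3 of CKO cells at 48 h were set against 3 of CKO cells at 0 h. They were chosen by their labels alone. The 48 h cells had been treated with 5 µg/ml anti-CD3, an antibody to the T-cell receptor complex, and 1 µg/ml anti-CD28, an antibody to a costimulatory receptor, and the 0 h cells had received neither. No library held cells kept for 48 h without the antibodies. Changes with elapsed time and changes with the antibodies therefore cannot be told apart in any result below. The design text calls the cells naive. The other 6 libraries were Senp1 WT cells at the same times, and they entered the fit and the last comparison below. The labels give neither the promoter that drove the deletion, nor the exons removed, nor the strain, age or number of mice. Whether each replicate was its own animal is not stated, and the p-values below reflect only how much these libraries varied, which may be technical. Of 56691 gene IDs in the count table, 15935 passed the filter on low counts and were tested.

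A naive CD8 T cell is a small resting cell that circulates between blood and lymphoid organs and divides rarely. Signals through its receptor and CD28 make it enlarge, enter the cell cycle and switch from fuel-saving to growth metabolism, and it then acquires cytokines and killing machinery. SENP1 is a protease that cuts the small protein SUMO from its substrates, and also trims SUMO precursors.

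Levels below are CPM, counts scaled to a common library total with TMM factors, listed for replicates 1, 2 and 3 in that order. They are shares of the counted RNA, and RNA per cell was not measured. A rise or fall below is therefore one of share, and does not show the change in mRNA per cell. Changes are log2 differences of 48 h against 0 h with their standard error (SE, n = 3 libraries per group). A gene rose or fell only where the edgeR adjusted p (quasi-likelihood, two-sided, Benjamini-Hochberg over all 15935 tested genes) was under 0.05. Totals of the CKO libraries ran from 15900529 to 19974750 counts. CKO replicates of the same time correlated at 0.984 to 0.991 across genes, against 0.842 to 0.856 across times. Replicate 2 at 0 h stood apart from replicates 1 and 3: their counts differed from it by a chi-square of 8.94 per gene, against 4.66 between each other. At 48 h replicate 2 also differed more, by 5.89 from replicate 1 and 5.12 from replicate 3, against 3.95 between those. Some results below are also given without replicate 2 at 0 h.

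The label CD8+ T cell was checked against markers. Cd8a stood at 820.02, 854 and 793 CPM at 0 h and 350.5, 386 and 364 CPM at 48 h, and Cd3e at 385, 387 and 374 CPM and 177, 179 and 179.7 CPM. Both were present in every library, and both fell (-1.16 ± 0.06 and -1.1 ± 0.06 on the log2 scale). Cd4, a marker of another T-cell class, was read at 51.02, 52.9 and 44.1 CPM and 39.4, 46.7 and 34.3 CPM (log2 -0.30 ± 0.14, edgeR adjusted p = 0.0647). It was not called here, and was called lower under 13 of the other settings tried, among them DESeq2 (-0.32) and library totals alone as the scale (-0.33). Markers of other cell types moved with time. The 18 B-cell markers summed to 1489 ± 125 CPM at 0 h and 425 ± 22.5 CPM at 48 h (SD), and 17 of them fell. Of 11 natural killer markers 10 fell, among them Ncr1 (from 22.6, 13.2 and 27.1 CPM at 0 h to 1.06, 1.32 and 1.32 CPM at 48 h). The 9 neutrophil markers summed to 6.91 ± 4.46 CPM at 0 h, and S100a8 was at 0 counts in every 48 h library. Of 13 myeloid and dendritic markers tested 11 fell, and Csf1r went from 10.3, 9.93 and 7.25 CPM at 0 h to 0.056, 0.11 and 0.152 CPM at 48 h. One member of the natural killer list, Eomes, and 1 of the myeloid list rose, the latter not without replicate 2 at 0 h. Their part in the results below was not tested. In bulk RNA, fewer cells of a type and less RNA per cell cannot be told apart.

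Senp1 itself (ENSMUSG00000033075), the deleted gene, went from 56.5, 59.8 and 54.6 CPM at 0 h to 70.03, 74.5 and 66.3 CPM at 48 h. The 3 libraries of 48 h all lay above the 3 of 0 h, by a log2 change of 0.30 ± 0.07 (edgeR adjusted p = 0.000659). Counts of the gene were thus present in CKO libraries at both times. They are per gene and do not show which exons were read, so these values do not by themselves check the deletion. In WT the gene rose by 0.97 ± 0.07, and the difference between the responses was -0.67 ± 0.10 (edgeR adjusted p = 0.000926).

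Of 10 tested proteases of SUMO and related modifiers, Senp1 included, 6 rose and 4 fell. Across all tested genes the shares were 38.5% higher and 39.2% lower. Senp7, which acts on SUMO chains, went from 112, 109 and 104 CPM at 0 h to 41.01, 41 and 39.9 CPM at 48 h, and no library overlapped between times. Its change was -1.42 ± 0.07 (edgeR adjusted p = 3.46e-13). Senp6, the other chain-directed member, fell by 0.38 ± 0.06. Senp3 and Senp5, both nucleolar, rose by 0.46 ± 0.06 and 0.60 ± 0.07. Senp8, which acts on NEDD8 instead of SUMO, rose by 2.79 ± 0.21 from a low level, and Desi1, a SUMO protease of another family, by 1.09 ± 0.08. As levels in CPM per kilobase of exon (GRCm38 gene models), Senp1 was read at 4.798 at 0 h and 5.92 at 48 h, Senp6 at 31.1 at 0 h and 23.8 at 48 h, and Senp7 at 7.77 at 0 h and 2.91 at 48 h. On this scale of levels Senp6 was above Senp1 at both times, and Senp7 was above it at 0 h and below it at 48 h.

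Over the whole transcriptome 6131 genes rose (38.5%) and 6246 fell (39.2%), and 3558 were not called. Counts of risen and fallen genes in the groups below are to be read against these shares. Without replicate 2 at 0 h the counts were 6109 and 6082. The median change of all tested genes was -0.04, with quartiles of -1.08 and 0.90 and a median SE of 0.15. A log2 change of at least 3 was reached by 786 genes that rose and 1014 that fell, and one of at least 5 by 246 and 225. The libraries of the 2 times did not overlap for 12127 of the 12377 called genes. Over all tested genes, called or not, 40.1% had every 48 h library above every 0 h library and 40.8% every one below. By biotype, 5513 of 12357 protein-coding genes rose (44.6%) and 4455 fell (36.1%). Among 1875 long non-coding genes 212 rose (11.3%) and 1099 fell (58.6%).

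**Figure D1:**
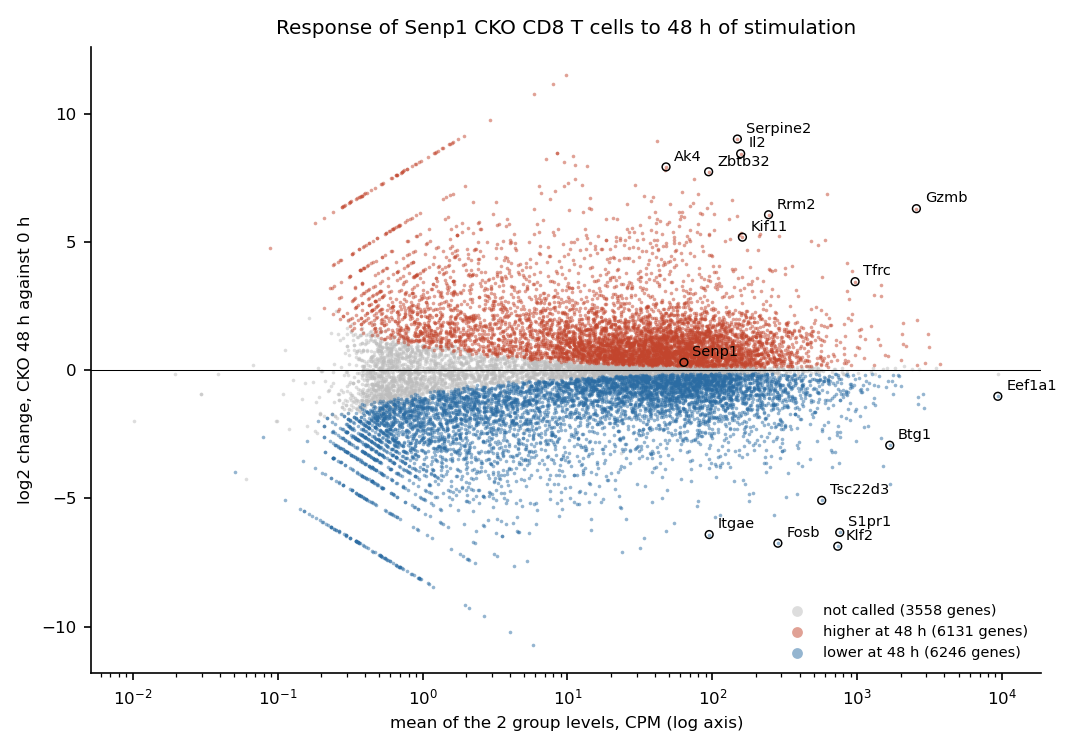
Log2 change of each of the 15935 tested genes (48 h against 0 h in CKO, vertical axis) against the mean of its 2 group levels in CPM (horizontal log axis). Red points rose (6131), blue points fell (6246) and grey points were not called (3558). Named genes are circled. Gzmb and Eef1a1 sit at high levels on opposite sides of 0, and Senp1 lies near 0.

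Genes with large rises included several that were nearly silent at 0 h. Serpine2, which encodes a secreted protease inhibitor, went from 0.492, 0.545 and 0.67 CPM at 0 h to 297, 274 and 319.9 CPM at 48 h. Ak4, a mitochondrial adenylate kinase, went from 0.307, 0.363 and 0.487 CPM at 0 h to 104, 89.8 and 92.3 CPM at 48 h, and Bcat1, which breaks down branched-chain amino acids in the cytosol, from 0.799, 0.848 and 0.853 CPM at 0 h to 151, 144 and 149 CPM at 48 h. The largest changes were chosen among genes whose libraries did not overlap between times, so their separation was fixed by that choice. Their log2 changes were 9.01 ± 0.47, 7.92 ± 0.29 and 7.46 ± 0.18 (edgeR adjusted p = 4.12e-11, 6.27e-19 and 6.77e-20). Zbtb32, a zinc-finger repressor, rose by 7.73 ± 0.26, and Fads2, a fatty acid desaturase, by 7.82 ± 0.37. Cth, the enzyme that makes cysteine from cystathionine, rose by 7.98 ± 0.79 from a mean of 0.081 CPM at 0 h. Lipg, a lipase, rose by 7.45 ± 0.65 from a mean of 0.122 CPM. Aunip and Tex15, which act with Aurora A and in DNA repair of germ cells, rose by 7.29 ± 0.51 and 7.21 ± 0.39, and Spin4, of the spindlin family of histone readers, by 7.2 ± 0.89. In all, 21 genes were under 0.5 CPM in every 0 h library and at 10 CPM or more in every 48 h library. Ak4, Cth, Lipg, Aunip and Spin4 were among them. The sizes of such changes rest on few counts at 0 h.

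The largest falls included receptors and enzymes of the resting cell. Cd7, an immunoglobulin-family receptor, went from 69.5, 63.3 and 55.5 CPM at 0 h to 0.504, 0.878 and 0.152 CPM at 48 h. Ggt1, which starts the breakdown of glutathione outside the cell, went from 69.3, 65.9 and 65.6 CPM at 0 h to 0.784, 0.439 and 0.911 CPM at 48 h, and Itgae, the integrin CD103 that holds T cells at epithelia, from 184, 185 and 194 CPM at 0 h to 1.85, 2.47 and 2.28 CPM at 48 h. These genes too were chosen among those without overlap between times. The changes were -6.95 ± 0.37, -6.53 ± 0.21 and -6.41 ± 0.19 (edgeR adjusted p = 2.01e-13, 6.32e-18 and 6.93e-15). Ampd1, the AMP deaminase best known from muscle, fell by 6.0 ± 0.53, Apol8 by 5.7 ± 0.35 and Ccr9, the receptor for gut homing, by 5.73 ± 0.16. Col6a4, a collagen gene, fell by 6.28 ± 0.25 from 104, 86.3 and 91.6 CPM at 0 h. Only 5 genes went the opposite way to the 21, from 10 CPM or more in every 0 h library to under 0.5 CPM in every 48 h library, and Ampd1 and Apol8 were among them.

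**Figure D2:**
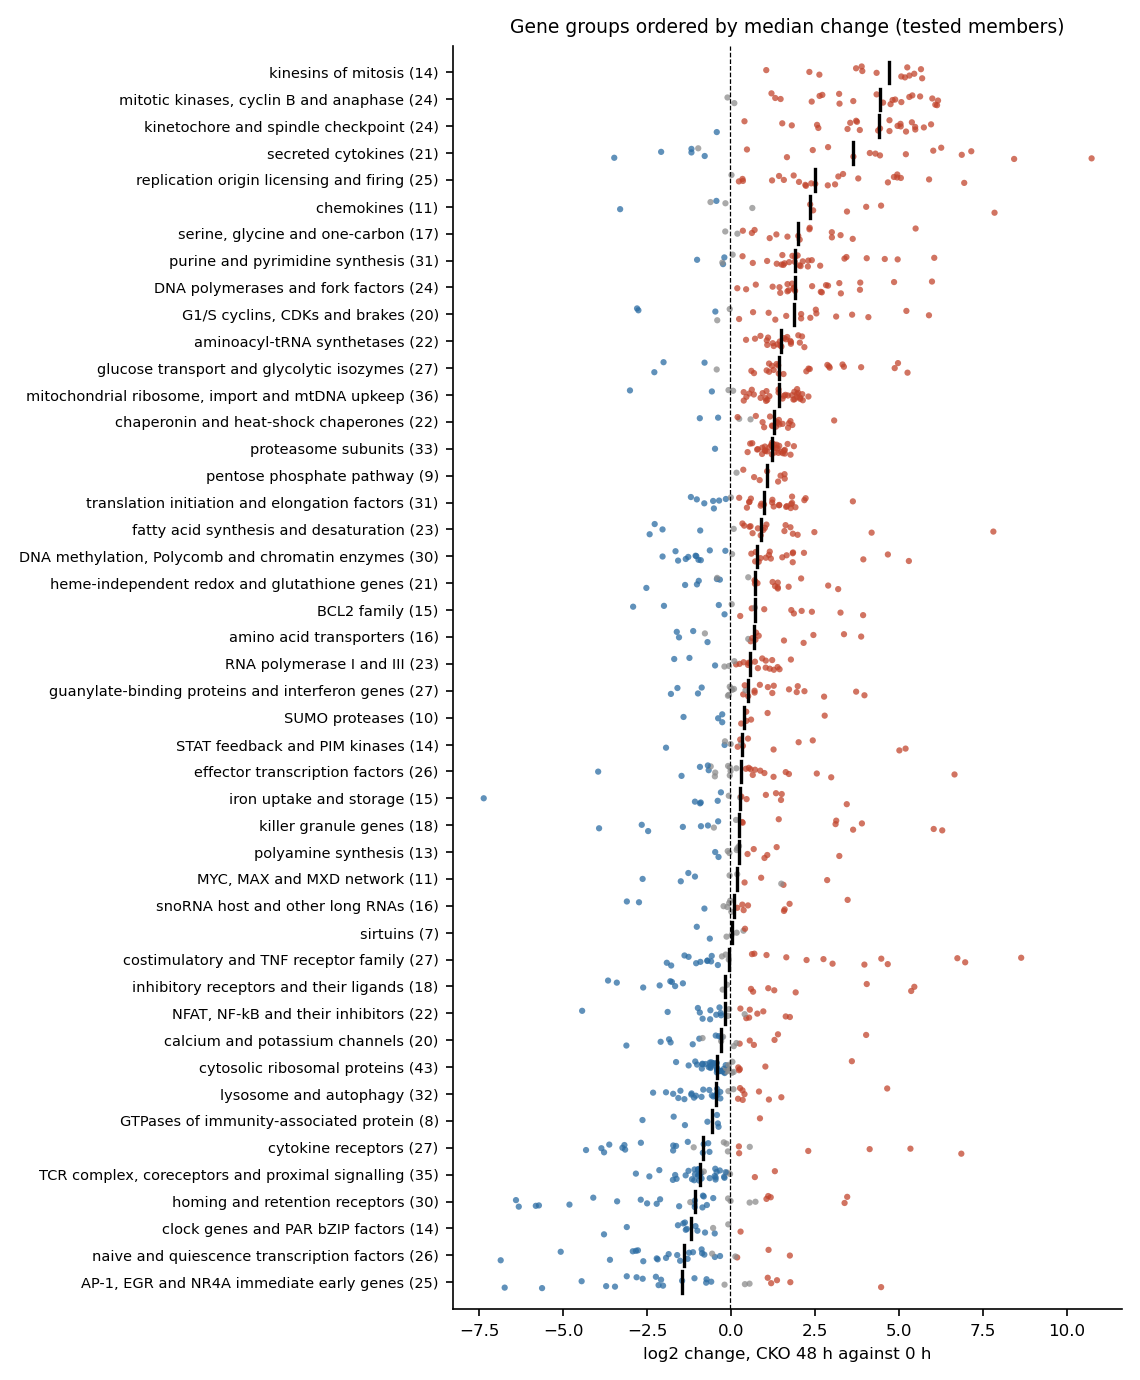
Log2 change (48 h against 0 h in CKO, horizontal axis) of the tested members of 46 gene groups, ordered by their median (black bar), with the number tested in brackets. Red members rose, blue members fell and grey members were not called. The dashed line is the median of all tested genes (-0.04). Mitotic kinesins are at the top (median 4.71), and naive factors (-1.41) are near the bottom.

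The 3 groups with the highest medians were those of mitosis, and earlier cell-cycle steps rose as well. The entry step from G1 into S is driven by D-type and E-type cyclins with their kinases and held back by CDK inhibitors. Of 20 tested genes of this step 15 rose and 3 fell (median log2 1.87, against -0.04 for all tested genes). Ccne1 (cyclin E1) went from 5.72, 3.88 and 4.39 CPM at 0 h to 82.7, 76.4 and 79.7 CPM at 48 h, a change of 4.09 ± 0.15. Ccnd2, a D-type cyclin, was already at 442, 508 and 462 CPM and reached 1135, 1187 and 1201 CPM (1.32 ± 0.07). The pair of inhibitors Cdkn1a (p21) and Cdkn1b (p27) went in opposite directions. Cdkn1a went from 10.9, 9.51 and 12.2 CPM at 0 h to 414, 378 and 432 CPM at 48 h, and Cdkn1b from 379.6, 430.4 and 374 CPM at 0 h to 57.8, 65.4 and 51.5 CPM at 48 h. Neither gene overlapped between times, and the changes were 5.23 ± 0.12 and -2.76 ± 0.08 (edgeR adjusted p = 8.83e-16 and 2.73e-16). Rbl1 (p107) and Rbl2 (p130), relatives of the retinoblastoma protein, moved by 0.66 ± 0.07 and -0.47 ± 0.06.

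Origin licensing loads the MCM helicase onto DNA before S phase, and firing factors then start replication. Of 25 tested genes 24 rose and 0 fell (median 2.51). Cdc6, which loads the helicase, went from 2.64, 1.27 and 2.01 CPM at 0 h to 126, 114 and 116 CPM at 48 h, and Mcm10, which starts the unwinding, from 0.922, 0.727 and 1.28 CPM at 0 h to 122, 116 and 126 CPM at 48 h. Both were low in each 0 h library and high in each 48 h library. Their changes were 5.9 ± 0.16 and 6.95 ± 0.23 (edgeR adjusted p = 2.24e-18 and 8.25e-18). Orc1, the cycling subunit of the origin complex, rose by 4.68 ± 0.14 and Orc2, a steady subunit, by 2.03 ± 0.06. Dbf4, the activator of the firing kinase, was the member not called: it was read at 113, 137 and 120.2 CPM and 124, 125 and 125 CPM (0.01 ± 0.07, edgeR adjusted p = 0.86). All 24 tested DNA polymerase and fork genes rose (median 1.89). Pole, the catalytic subunit of polymerase epsilon, went from 12.4, 12.8 and 16.3 CPM at 0 h to 192, 198 and 205 CPM at 48 h (3.84 ± 0.10), and Pcna, the sliding clamp, rose by 1.88 ± 0.06. Exo1, a repair nuclease, rose by 5.99 ± 0.19.

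The promoters of the licensing genes are shown because the group moved together and because E2F factors are textbook regulators of S-phase genes. RefSeq windows (GRCm38.p6, 250 bases before to 50 after the start) were matched by symbol for 10400 of the 15935 tested genes, 13193 windows in all. The E2F motifs searched were TTTCCCGC and TTTGGCGC on both strands. Each motif was searched separately, and matches of different motifs may overlap. They were found in 33.3% of the 24 windows of the licensing genes, 28.0% of the 25 windows of the polymerase and fork genes and 2.87% of all windows. The stretches below are the 150 bases before the start, 5′ to 3′ on the gene's strand, with the E2F letters in capitals, for 4 of the 5 licensing genes with a match in that stretch.
Cdc6 (chr11:98908001-98908150, plus strand): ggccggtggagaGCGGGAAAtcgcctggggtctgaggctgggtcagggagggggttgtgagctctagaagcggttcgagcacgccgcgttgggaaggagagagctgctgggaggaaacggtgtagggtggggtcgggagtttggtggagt
Gins3 (chr8:95633409-95633558, plus strand): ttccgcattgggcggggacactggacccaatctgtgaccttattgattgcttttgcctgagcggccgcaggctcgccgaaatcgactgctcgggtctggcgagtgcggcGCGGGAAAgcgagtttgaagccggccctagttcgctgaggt
Mcm5 (chr8:75109359-75109508, plus strand): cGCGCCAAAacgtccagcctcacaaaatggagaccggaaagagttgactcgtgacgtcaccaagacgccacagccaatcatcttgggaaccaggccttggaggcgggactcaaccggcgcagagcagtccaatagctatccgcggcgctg
Mcm6 (chr1:128359706-128359855, minus strand): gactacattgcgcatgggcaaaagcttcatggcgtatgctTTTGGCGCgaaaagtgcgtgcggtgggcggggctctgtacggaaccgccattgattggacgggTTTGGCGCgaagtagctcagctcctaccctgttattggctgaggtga
The match lies 138 bases before the start in Cdc6, 41 in Gins3 and 149 in Mcm5, and Mcm6 holds it at 110 and 47 bases. In the libraries Mcm5 went from 41.1, 49.2 and 45.9 CPM at 0 h to 385, 394 and 389.5 CPM at 48 h (3.1 ± 0.08). A match of letters is a description and not a measured binding site.

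Kinesins are motors that build the spindle and move chromosomes, and all 14 tested mitotic kinesins rose (median 4.71). Summed over the group, levels went from 112 ± 7.31 CPM to 1464 ± 40.2 CPM (SD, n = 3). Kif11, the motor that pushes spindle poles apart, went from 9.53, 6.36 and 9.99 CPM at 0 h to 318, 302 and 321 CPM at 48 h, and Kif18b, which shortens microtubules, from 1.97, 1.45 and 1.58 CPM at 0 h to 74.96, 67.6 and 78.6 CPM at 48 h. Kif2c, another depolymerizing kinesin, went from 1.41, 0.787 and 1.46 CPM at 0 h to 60.8, 62.8 and 62.6 CPM at 48 h. No 48 h library came near a 0 h library in these genes, and replicate 2 was the lowest at 0 h. The changes were 5.18 ± 0.14, 5.46 ± 0.15 and 5.66 ± 0.21 (edgeR adjusted p = 1.05e-13, 4.53e-18 and 1.42e-16). Kif23, a motor of cytokinesis, had the smallest change of the group, 1.05 ± 0.15 from 38.97, 40.3 and 42.7 CPM. Of 24 kinetochore and checkpoint genes 23 rose and 1 fell (median 4.41). Nuf2 and Bub1 rose by 5.75 ± 0.14 and 5.96 ± 0.17. The gene that fell was Cenpa, the centromere histone, which went from 151, 164 and 141 CPM at 0 h to 114, 114 and 112 CPM at 48 h (-0.43 ± 0.08, edgeR adjusted p = 0.000146). Of 24 mitotic kinase, cyclin B and anaphase genes 22 rose and 0 fell (median 4.43). Cdk1 rose by 6.14 ± 0.22, Ccnb1 by 6.09 ± 0.16, and Cdc20, the activator of the anaphase ligase, by 4.89 ± 0.13. Fzr1, its relative of late mitosis and G1, rose by 1.48 ± 0.08, and Foxm1, a factor of the mitotic programme, by 2.72 ± 0.09.

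Promoters of the kinesins were examined for letters known from mitotic genes, the cell-cycle homology region (CHR, TTTGAA) and the NF-Y motif (CCAAT), on both strands. CHR letters were found in 76.9% of the 13 kinesin windows, 42.3% of the 26 kinetochore windows, 44.4% of the 18 mitotic kinase windows and 12.4% of all 13193 windows. CCAAT was in 69.2% of the kinesin windows and 37.6% of all windows, and 7 of the 13 kinesin windows held both. CCAAT was not particular to mitotic groups: it was in 77.8% of the 18 clock-gene windows and 68.8% of the 16 serine and one-carbon windows. The clock genes mostly fell and the one-carbon genes mostly rose. CHR letters were also in 32% of the 25 cytokine receptor windows and 30% of the 20 homing receptor windows, groups that mostly fell. The 4 kinesins with CHR letters in the 150 bases before the start are shown, with CHR and CCAAT letters in capitals (on the opposite strand they read TTCAAA and ATTGG).
Kif11 (chr19:37376232-37376381, plus strand): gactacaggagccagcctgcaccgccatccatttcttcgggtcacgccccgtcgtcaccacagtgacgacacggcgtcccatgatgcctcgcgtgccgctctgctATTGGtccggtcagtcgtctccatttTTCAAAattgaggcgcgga
Kif15 (chr9:122950931-122951080, plus strand): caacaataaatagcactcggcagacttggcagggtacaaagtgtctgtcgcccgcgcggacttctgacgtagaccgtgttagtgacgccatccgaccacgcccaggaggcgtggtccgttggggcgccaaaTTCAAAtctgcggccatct
Kif22 (chr7:127042421-127042570, minus strand): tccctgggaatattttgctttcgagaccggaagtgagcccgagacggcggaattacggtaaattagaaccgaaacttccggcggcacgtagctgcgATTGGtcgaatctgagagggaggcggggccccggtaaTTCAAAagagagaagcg
Kif2c (chr4:117178773-117178922, minus strand): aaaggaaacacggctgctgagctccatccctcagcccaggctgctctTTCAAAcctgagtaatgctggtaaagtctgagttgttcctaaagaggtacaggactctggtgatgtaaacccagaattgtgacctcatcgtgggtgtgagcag
In Kif11, Kif15 and Kif22 the CHR letters lie 19, 19 and 17 bases before the start, and in Kif2c 103 bases. In Kif11 and Kif22 CCAAT letters lie 45 and 54 bases before the start.

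MYC, which drives ribosome building and metabolism with its partner MAX, is opposed by the MXD repressors. Myc went from 213, 128 and 212 CPM at 0 h to 549.8, 533 and 549 CPM at 48 h. The 48 h libraries lay close together and above all 0 h libraries, of which replicate 2 was the lowest, and the change was 1.56 ± 0.23 (edgeR adjusted p = 0.000209), or 1.37 without that library. Max rose by 0.40 ± 0.06, Mxd4 fell by 2.64 ± 0.09 and Mxd1 by 1.5 ± 0.24, while Mxd3, a member of S phase, rose by 2.87 ± 0.37. In all 4 of 11 tested genes of this network rose and 4 fell (median 0.18), near the shares of all tested genes. Of 23 subunits and regulators of RNA polymerases I and III 17 rose and 3 fell (median 0.56). Rrn3, which recruits polymerase I, rose by 1.39 ± 0.06 and Polr1b by 1.45 ± 0.07. Maf1, the repressor of polymerase III, fell by 1.24 ± 0.08, and Brf1, an initiation factor of the same polymerase, by 1.69 ± 0.07.

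As a share of counts, most ribosomal protein mRNAs went the other way from the rest of this machinery. Of 43 tested members 29 fell and 5 rose (median -0.41), or 27 and 5 without replicate 2 at 0 h, and together they took 46497 ± 1354 CPM at 0 h and 39130.5 ± 859.7 CPM at 48 h (SD, n = 3). Rps27 went from 775, 759 and 799 CPM at 0 h to 232, 267 and 251 CPM at 48 h and its paralog Rps27l from 14.9, 19.5 and 15.4 CPM at 0 h to 188, 203 and 213 CPM at 48 h, so that the pair moved by -1.64 ± 0.07 and 3.6 ± 0.10 (edgeR adjusted p = 1.19e-13 and 1.25e-15). Rps7 fell by 1.26 ± 0.07 and Rps6 by 0.61 ± 0.06, while Rps2 rose by 1.02 ± 0.05. Ribosomal protein genes have many near-identical pseudogene copies, and the sources used here do not say how reads with several matches were counted, which leaves their levels uncertain. Among 31 translation factors 23 rose and 7 fell (median 0.98). Eif4e, which binds the mRNA cap, rose by 1.82 ± 0.06, and Eif5a by 2.19 ± 0.06. The helicase paralogs Eif4a1 and Eif4a2 crossed: Eif4a1 went from 691, 719 and 675 CPM at 0 h to 1301, 1259.8 and 1343 CPM at 48 h, and Eif4a2 from 1091, 1024 and 1047 CPM at 0 h to 614, 584 and 621 CPM at 48 h. Eef1a1, the elongation factor, fell by 1.02 ± 0.05 from 12359.9, 12549 and 12640.2 CPM, and Pdcd4, an inhibitor of the helicase, by 1.2 ± 0.07.

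All 22 tested tRNA synthetase genes rose (median 1.48). Aars, for alanine, went from 38.2, 47.5 and 51.3 CPM at 0 h to 213, 209.8 and 201 CPM at 48 h, and Iars, for isoleucine, from 74.99, 72.2 and 78.4 CPM at 0 h to 308, 307 and 320 CPM at 48 h. The groups did not overlap, and the changes were 2.19 ± 0.08 and 2.05 ± 0.06 (edgeR adjusted p = 1.11e-14 and 1.03e-16). Gars rose by 1.78 ± 0.07, Yars by 2.12 ± 0.07 and Wars by 1.67 ± 0.07. The C/EBP-ATF response element (CARE, TGATGNAA), letters bound by ATF4 in amino acid response genes, was found in 33.3% of their 15 windows, in 22.2% of the 18 windows of amino acid transporters and in 2.36% of all windows. The 3 synthetases with CARE letters in the 150 bases before the start are shown, with these letters in capitals (read here on the opposite strand).
Aars (chr8:111033692-111033841, plus strand): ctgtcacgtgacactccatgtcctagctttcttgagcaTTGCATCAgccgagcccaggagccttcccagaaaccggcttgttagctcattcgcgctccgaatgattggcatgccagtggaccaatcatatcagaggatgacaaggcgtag
Gars (chr6:55037851-55038000, plus strand): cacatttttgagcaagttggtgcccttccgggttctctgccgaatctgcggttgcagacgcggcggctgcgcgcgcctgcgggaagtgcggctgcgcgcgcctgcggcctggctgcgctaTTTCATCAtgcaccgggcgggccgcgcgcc
Tars (chr15:11399659-11399808, minus strand): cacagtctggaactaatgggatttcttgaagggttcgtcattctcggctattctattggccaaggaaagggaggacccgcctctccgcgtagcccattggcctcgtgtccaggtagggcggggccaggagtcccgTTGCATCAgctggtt
The letters lie 112 bases before the start in Aars, 30 in Gars and 15 in Tars.

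Most protein folding and turnover genes rose. Of 22 chaperones 18 rose and 2 fell (median 1.29). Hspd1, the mitochondrial chaperonin HSP60, went from 171, 192 and 179 CPM at 0 h to 1523, 1469 and 1576 CPM at 48 h, the largest change of the group at 3.07 ± 0.06 (edgeR adjusted p = 2.47e-18). Cct6a, of the cytosolic chaperonin, rose by 1.83 ± 0.06 and Hsp90ab1 by 1.39 ± 0.06. The J-domain cochaperones Dnaja1 and Dnajb1 fell by 0.93 ± 0.06 and 0.39 ± 0.07, and the stress-induced Hspa1a was at 0.487 to 2.75 CPM in all 6 libraries and not called. Of 33 proteasome genes 32 rose (median 1.22). Psmd1 of the cap rose by 1.87 ± 0.06 and Psmb5, a catalytic subunit, by 1.58 ± 0.09. Among the immunoproteasome subunits, which replace catalytic ones in immune cells, Psmb8 and Psmb9 rose by 0.78 ± 0.08 and 0.80 ± 0.07. Psmb10, the remaining such subunit, was the member that fell: it went from 62.2, 72.1 and 62.9 CPM at 0 h to 46.4, 50.1 and 45.1 CPM at 48 h (-0.48 ± 0.08, edgeR adjusted p = 2.98e-05).

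Glycolytic genes rose unevenly among isozymes. Of 27 transporter, glycolysis and lactate genes 23 rose and 3 fell (median 1.42). Hk2, the inducible hexokinase, went from 5.96, 8.29 and 8.84 CPM at 0 h to 317, 269 and 301 CPM at 48 h (5.26 ± 0.14, edgeR adjusted p = 2.97e-14), while Hk1 rose by 0.68 ± 0.06. Of the phosphofructokinases Pfkl rose by 2.24 ± 0.08, Pfkp by 1.06 ± 0.07 and Pfkm by 0.61 ± 0.12. Ldha, which makes lactate, went from 261, 284 and 247 CPM at 0 h to 2752, 2604 and 2574 CPM at 48 h, and its sister subunit Ldhb rose by 1.36 ± 0.12. The lactate exporter Slc16a3 (MCT4) went from 4.12, 4.96 and 3.05 CPM at 0 h to 143, 123 and 116 CPM at 48 h (4.98 ± 0.24), and Slc16a1 (MCT1) rose by 1.13 ± 0.06. The glucose transporters Slc2a1 and Slc2a3 rose by 1.56 ± 0.08 and 1.42 ± 0.13. The pyruvate dehydrogenase kinases Pdk1 and Pdk2, which keep pyruvate out of mitochondrial oxidation, fell, Pdk1 by 0.79 ± 0.06 and Pdk2 by 2.01 ± 0.17. In the pentose phosphate pathway 8 of 9 genes rose, with G6pdx at 1.4 ± 0.08 and Tkt at 1.59 ± 0.05, and Taldo1 (0.16 ± 0.08, edgeR adjusted p = 0.0719) was not called.

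Paralogs in nucleotide synthesis moved apart. Of 31 genes 26 rose and 3 fell (median 1.90). Rrm2, the S-phase subunit of ribonucleotide reductase, went from 7.31, 5.99 and 8.35 CPM at 0 h to 483, 466 and 494 CPM at 48 h (6.06 ± 0.12, edgeR adjusted p = 1.47e-17), and Rrm2b, its p53-linked relative, fell by 0.20 ± 0.08. The call of Rrm2b was lost without replicate 3 at 0 h (-0.14) and without replicate 2 (-0.15) or 3 (-0.20) at 48 h. Impdh2 and Impdh1, the paralogs at the branch to GTP, moved by 1.36 ± 0.07 and -0.24 ± 0.07, and without replicate 2 at 0 h Impdh1 was at -0.16 and not called. Ctps, which makes CTP, went from 30.5, 29.7 and 35.5 CPM at 0 h to 177, 159.98 and 171 CPM at 48 h, and Ctps2 from 105, 114 and 107 CPM at 0 h to 52.9, 55.3 and 53.02 CPM at 48 h. Each of these pairs had one member that rose and one that fell, with no overlap between times. Tyms, which makes thymidylate, rose by 4.97 ± 0.16 and Cad, the start of pyrimidine synthesis, by 2.14 ± 0.08. Of 17 serine and one-carbon genes 15 rose and 0 fell. Psat1 went from 22.1, 24.9 and 24.9 CPM at 0 h to 313, 283 and 294 CPM at 48 h (3.63 ± 0.08), Mthfd2, the mitochondrial folate enzyme, rose by 3.26 ± 0.08, Shmt1 by 3.01 ± 0.09 and Shmt2 by 1.68 ± 0.08.

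Of 16 amino acid transporters 10 rose and 4 fell, against 38.5% higher and 39.2% lower over all tested genes. Slc7a5, the light chain of the large neutral amino acid carrier, went from 48.1, 64 and 59.5 CPM at 0 h to 269.9, 243 and 256 CPM at 48 h, while Slc3a2, its heavy chain CD98, went from 287, 266 and 287 CPM at 0 h to 181, 167 and 168 CPM at 48 h. Light and heavy chain thus moved by 2.16 ± 0.09 and -0.70 ± 0.08 (edgeR adjusted p = 1.65e-13 and 5.91e-08). Slc7a1, for arginine, rose by 1.58 ± 0.06, Slc1a5, for glutamine, by 0.58 ± 0.06, and Slc38a2 fell by 1.55 ± 0.06. For polyamines, Odc1 rose by 1.0 ± 0.06 and Srm (spermidine synthase) by 3.23 ± 0.10, and Amd1 fell by 0.37 ± 0.06. In all 6 of 13 polyamine genes rose and 2 fell, and the share that rose was near that of all tested genes.

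For lipids, 18 of 23 fatty acid genes rose and 4 fell (median 0.88). Scd2, a stearoyl-CoA desaturase, went from 88.3, 93.8 and 83.2 CPM at 0 h to 1726, 1539 and 1579 CPM at 48 h, with no library near the other time (4.19 ± 0.06, edgeR adjusted p = 8.95e-20). Fasn and Acly, which build fatty acids from citrate, rose by 1.84 ± 0.09 and 0.88 ± 0.06. Acss2, which uses acetate instead, went from 70.6, 80.3 and 75.7 CPM at 0 h to 15.5, 16.1 and 15.1 CPM at 48 h (-2.28 ± 0.08), and the elongases Elovl5 and Elovl7 fell by 0.92 ± 0.06 and 2.04 ± 0.19. Of 36 genes for mitochondrial ribosomes, import and DNA upkeep 32 rose and 2 fell (median 1.42). Timm8a1 rose by 2.31 ± 0.11 and Mrpl12 by 2.14 ± 0.13, and Tfam, which packs mitochondrial DNA, by 0.38 ± 0.07. Polg2, the accessory subunit of the mitochondrial polymerase, went from 91.3, 56.1 and 75.1 CPM at 0 h to 9.58, 8.18 and 9.76 CPM at 48 h (-3.01 ± 0.17), and Tfb2m fell by 0.57 ± 0.09.

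In iron uptake Tfrc, the transferrin receptor, went from 159, 164 and 163 CPM at 0 h to 1771, 1713 and 1827 CPM at 48 h (3.45 ± 0.06, edgeR adjusted p = 6.16e-19). The ferritin chains Fth1 and Ftl1 fell by 1.08 ± 0.07 and 0.40 ± 0.08, so these storage mRNAs moved apart from Tfrc. In all 7 of 15 iron uptake and storage genes rose and 6 fell (median 0.27), near the shares of all tested genes. Of 21 redox genes 13 rose and 6 fell, against 38.5% higher and 39.2% lower over all tested genes. Txn1 (thioredoxin) rose by 3.19 ± 0.08 while Txnip, its inhibitor, went from 1063, 1572 and 1056 CPM at 0 h to 222, 222 and 197 CPM at 48 h (-2.52 ± 0.15). Prdx1 and Prdx4 rose by 1.39 ± 0.06 and 2.9 ± 0.18, and Prdx6 fell by 1.37 ± 0.07. Of 32 lysosome and autophagy genes 21 fell and 9 rose (median -0.44). Map1lc3b (LC3B) went from 216, 216 and 215 CPM at 0 h to 57.1, 58.01 and 53.8 CPM at 48 h, Ulk1 fell by 1.18 ± 0.09 and Sqstm1 (p62) by 1.51 ± 0.08. Bnip3, a mitophagy receptor and hypoxia-response gene, rose by 4.66 ± 0.16 and Ctsz by 1.5 ± 0.16.

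Most factors of the naive state fell. Of 26 tested members 21 fell and 3 rose (median -1.41). Tcf7 (TCF-1), which keeps T cells stem-like, went from 1307, 1342 and 1295 CPM at 0 h to 188, 250.4 and 205 CPM at 48 h, and Btg1, an mRNA-deadenylation partner of resting cells, from 2912, 3202 and 2778 CPM at 0 h to 379, 412 and 376 CPM at 48 h. Tsc22d3 (GILZ), a FOXO and glucocorticoid target, went from 1094, 1155 and 1065 CPM at 0 h to 35.3, 36.2 and 26.7 CPM at 48 h. In these genes every 48 h library was well below every 0 h library. The changes were -2.62 ± 0.08, -2.93 ± 0.06 and -5.08 ± 0.10 (edgeR adjusted p = 5.38e-16, 2.31e-18 and 1.19e-16). Foxo1 fell by 1.94 ± 0.06, Klf3 by 3.61 ± 0.11 and Lef1 by 1.52 ± 0.08. Bach2, a repressor of effector genes, was not called (from 159, 159 and 169 CPM at 0 h to 161, 184 and 187 CPM at 48 h, edgeR adjusted p = 0.208). Id3 and Slfn2 rose by 1.75 ± 0.24 and 1.12 ± 0.10.

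Effector factors did not move as a block: 13 of 26 rose, 5 fell and 8 were not called. Over all tested genes 38.5% were higher and 39.2% lower. Tbx21 (T-bet) went from 21.3, 8.48 and 19.4 CPM at 0 h to 122, 131 and 136 CPM at 48 h, Irf8 from 79.4, 46.3 and 91.8 CPM at 0 h to 424, 420.3 and 434 CPM at 48 h, and Irf4 from 335, 143 and 347 CPM at 0 h to 952, 852 and 924 CPM at 48 h. Replicate 2 at 0 h was the lowest library of these genes, and no library of 48 h fell to the 0 h range. The changes were 2.99 ± 0.25, 2.56 ± 0.20 and 1.73 ± 0.36 (edgeR adjusted p = 3.2e-06, 2.85e-06 and 0.00239), and 2.68, 2.33 and 1.43 without that library. Eomes rose by 1.27 ± 0.16, Batf by 0.65 ± 0.17, Bhlhe40 by 0.99 ± 0.27 (0.78 without that library) and Batf3 by 6.66 ± 1.13. Prdm1 (Blimp-1), of terminal effectors, was at 11.6, 7.81 and 10.7 CPM and 9.47, 6.04 and 6.07 CPM and not called (edgeR adjusted p = 0.16), nor was Zeb2 (-0.04 ± 0.19). Id2 fell by 1.48 ± 0.09, Tox by 0.93 ± 0.09, and Bcl6 by 3.96 ± 0.15, from 47.8, 37.96 and 40.8 CPM to 2.69, 2.47 and 2.93 CPM.

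Immediate early genes, which respond to a receptor signal within minutes without new protein synthesis, were high at 0 h. Of 25 tested members 17 fell and 5 rose, and without replicate 2 at 0 h 17 fell and 4 rose. Fos went from 651, 344 and 564 CPM at 0 h to 12.4, 9.22 and 9.76 CPM at 48 h, Fosb from 843, 170.1 and 671 CPM at 0 h to 5.49, 5.38 and 4.81 CPM at 48 h, and Nr4a1, an orphan nuclear receptor used as a readout of receptor signalling, from 1320.2, 550.01 and 1435 CPM at 0 h to 166, 172 and 194 CPM at 48 h. Replicate 2 at 0 h was far below the other 0 h libraries in Fosb and Nr4a1 and still above each 48 h library. The changes were -5.63 ± 0.30, -6.75 ± 0.71 and -2.63 ± 0.47 (edgeR adjusted p = 2.5e-07, 2.73e-05 and 0.00116). Jun, Junb and Zfp36 fell by 3.72 ± 0.14, 2.03 ± 0.14 and 2.82 ± 0.24, and Zfp36l2, an mRNA-decay factor, by 3.11 ± 0.05. Nr4a3 rose instead, from 354, 186 and 367 CPM at 0 h to 609, 624 and 702 CPM at 48 h (1.09 ± 0.25). Egr1 (-0.19 ± 0.29) and Egr2 (0.41 ± 0.37) were not called. Without replicate 2 at 0 h the changes were -5.85 for Fos, -7.17 for Fosb, -2.95 for Nr4a1 and 0.85 for Nr4a3. The natural killer markers were also lowest in that library, at a sum of 338, 217 and 391 CPM in the 3 libraries of 0 h, and their part in the result was not tested.

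**Figure D3:**
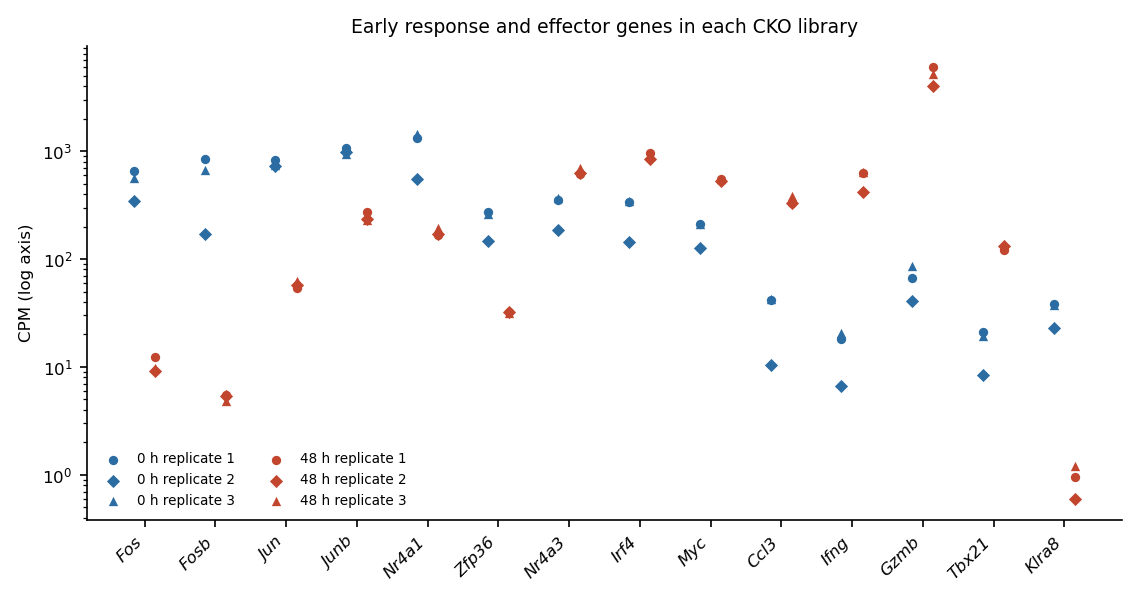
Level in CPM (log axis) of 14 genes in each CKO library: early response and effector genes, and the natural killer marker Klra8. Blue marks are 0 h, red marks 48 h, and the shape gives the replicate. The 0 h diamond (replicate 2) is below the other 0 h marks for Fosb, Nr4a1, Irf4, Ccl3 and Ifng, and the 2 times do not overlap for any gene drawn.

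Of 22 NF-kB and NFAT genes 8 rose and 11 fell, against 38.5% higher and 39.2% lower over all tested genes. Nfkb1 (p105/p50) went from 246, 268 and 258 CPM at 0 h to 927, 782 and 894 CPM at 48 h and Nfkb2 rose by 1.63 ± 0.06, while Relb fell by 0.44 ± 0.07 and Rel was not called (-0.09 ± 0.13). Tnfaip3 (A20), a brake on NF-kB, went from 3305, 2974 and 3437 CPM at 0 h to 152, 151 and 146 CPM at 48 h, a change of -4.44 ± 0.06 (edgeR adjusted p = 6.22e-20), and Nfkbiz fell by 1.89 ± 0.11. Clock genes mostly fell, 11 of 14 (median -1.19). Per1 went from 514, 421 and 458 CPM at 0 h to 34.2, 32.5 and 34.2 CPM at 48 h (-3.79 ± 0.10) and Nr1d2 fell by 3.11 ± 0.10. Cry1 was the member that rose, by 0.28 ± 0.10, its libraries overlapped between times, and its call was lost without replicate 1 at 0 h (0.19) or replicate 2 at 48 h (0.25).

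Genes of the T-cell receptor machinery mostly fell. Of 35 tested genes 30 fell and 2 rose (median -0.91), and the group summed to 14678 ± 98.02 CPM at 0 h and 8494 ± 57.9 CPM at 48 h (SD, n = 3). Cd8b1 went from 749.6, 814 and 762 CPM at 0 h to 258, 241 and 255 CPM at 48 h, Lck, the kinase that starts the signal, from 704, 746 and 680.4 CPM at 0 h to 386, 398 and 375 CPM at 48 h, and Dgka, which removes the second messenger diacylglycerol, from 986, 954 and 949 CPM at 0 h to 213, 229.6 and 213 CPM at 48 h. All 0 h libraries lay above all 48 h libraries, and the changes were -1.62 ± 0.07, -0.88 ± 0.06 and -2.14 ± 0.06 (edgeR adjusted p = 5.64e-14, 1.87e-11 and 8.92e-17). Cd3g fell by 1.73 ± 0.16. The 2 that rose were Lcp2 (SLP-76), a scaffold, by 0.71 ± 0.08, and Cblb, a ubiquitin ligase that limits signalling, by 1.31 ± 0.07. Among ion channel genes Orai2 went from 275, 292 and 255 CPM at 0 h to 31.1, 32.3 and 31.2 CPM at 48 h (-3.12 ± 0.07), while Orai1, the pore of the main calcium channel, was not called (0.08 ± 0.12). Stim1, its calcium sensor, fell by 1.14 ± 0.06, Kcnn4 rose by 0.56 ± 0.11, and Kcnk5 by 4.03 ± 0.17. Of 8 GIMAP genes, GTPases of lymphocyte survival, 7 fell, led by Gimap6 (from 2529, 2309 and 2756 CPM at 0 h to 391, 425 and 402 CPM at 48 h, -2.64 ± 0.07), and Gimap7 rose by 0.86 ± 0.10.

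Among costimulatory genes Cd28, the receptor bound by the antibody, went from 1290.3, 937 and 1376 CPM at 0 h to 342, 363 and 341 CPM at 48 h (-1.78 ± 0.10, edgeR adjusted p = 1.2e-09), Cd27 fell by 0.71 ± 0.07 and Icos by 0.39 ± 0.07. The later receptors of the TNF family rose from low levels: Tnfrsf9 (4-1BB) went from 12.9, 16.2 and 17.6 CPM at 0 h to 453, 354 and 385 CPM at 48 h (4.67 ± 0.20), Tnfrsf4 (OX40) rose by 3.98 ± 0.12 and Tnfrsf18 (GITR) by 3.03 ± 0.15. The ligand Tnfsf4 (OX40L) went from 0.861, 0.605 and 0.67 CPM at 0 h to 69.1, 80.4 and 81.9 CPM at 48 h (6.75 ± 0.25). Cd70, the ligand of CD27, was at 0 counts in each 0 h library and 2.18, 3.35 and 2.68 CPM at 48 h, at least 44.9-fold higher (against 3 counts over the 0 h group). Of 27 genes of this group 13 rose and 11 fell, against 38.5% higher and 39.2% lower over all tested genes.

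Of 18 inhibitory receptors and ligands 8 rose and 8 fell, against 38.5% higher and 39.2% lower over all tested genes, and without replicate 2 at 0 h 7 rose. Lag3 went from 1.72, 1.76 and 2.32 CPM at 0 h to 83.1, 70.7 and 86.6 CPM at 48 h, Cd200, a ligand, from 4.12, 4.72 and 4.81 CPM at 0 h to 196, 199 and 208 CPM at 48 h, and Pdcd1 (PD-1) from 8.61, 12.05 and 11.03 CPM at 0 h to 38.7, 40.01 and 41.8 CPM at 48 h. Each 48 h library was above each 0 h library, and the changes were 5.37 ± 0.43, 5.46 ± 0.27 and 1.93 ± 0.16 (edgeR adjusted p = 4.83e-07, 1.15e-08 and 1.29e-08). Ctla4 rose by 0.66 ± 0.21, and its call was lost without replicate 1 (0.64) or 2 (0.59) at 0 h and without replicate 1 at 48 h (0.53). Havcr2 (TIM-3) rose by 1.29 ± 0.39, to 2.52, 1.76 and 1.87 CPM, and by 1.02 without replicate 2 at 0 h. Tigit (-0.25 ± 0.18) and Cd274 (-0.12 ± 0.18), which encodes PD-L1, were not called. Vsir (VISTA), which keeps naive cells quiescent, went from 384, 342 and 379.9 CPM at 0 h to 73.8, 94.3 and 84.8 CPM at 48 h (-2.13 ± 0.14), and Nt5e (CD73), which makes adenosine, fell by 3.67 ± 0.15.

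Cytokine receptors fell more often than they rose. Of 27 tested 16 fell and 6 rose (median -0.84), and without replicate 2 at 0 h 16 fell and 5 rose. Il7r, the receptor that keeps naive cells alive, went from 1284, 1161 and 1325 CPM at 0 h to 95.01, 95.7 and 82.8 CPM at 48 h, Il6ra from 272, 260.4 and 275 CPM at 0 h to 12.9, 15.5 and 11.9 CPM at 48 h, and Ifngr1 from 1130.5, 1227 and 1276 CPM at 0 h to 126, 151 and 124 CPM at 48 h. Their 48 h libraries were all below their 0 h libraries, with changes of -3.79 ± 0.07, -4.32 ± 0.15 and -3.18 ± 0.08 (edgeR adjusted p = 2.3e-18, 4.67e-11 and 6.62e-16). Tgfbr2 fell by 2.69 ± 0.06 and Il18r1 by 3.87 ± 0.23. Both chains of the IL-12 receptor rose, Il12rb1 by 4.13 ± 0.10 and Il12rb2 by 5.35 ± 0.24, and Il15ra by 2.3 ± 0.12. Il21r was not called. Downstream, Cish and Socs2, feedback genes of STAT5, rose by 5.02 ± 0.20 and 5.2 ± 0.31, Pim2, a kinase of the same pathway, by 2.01 ± 0.08, and Socs3 fell by 1.94 ± 0.31.

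**Figure D4:**
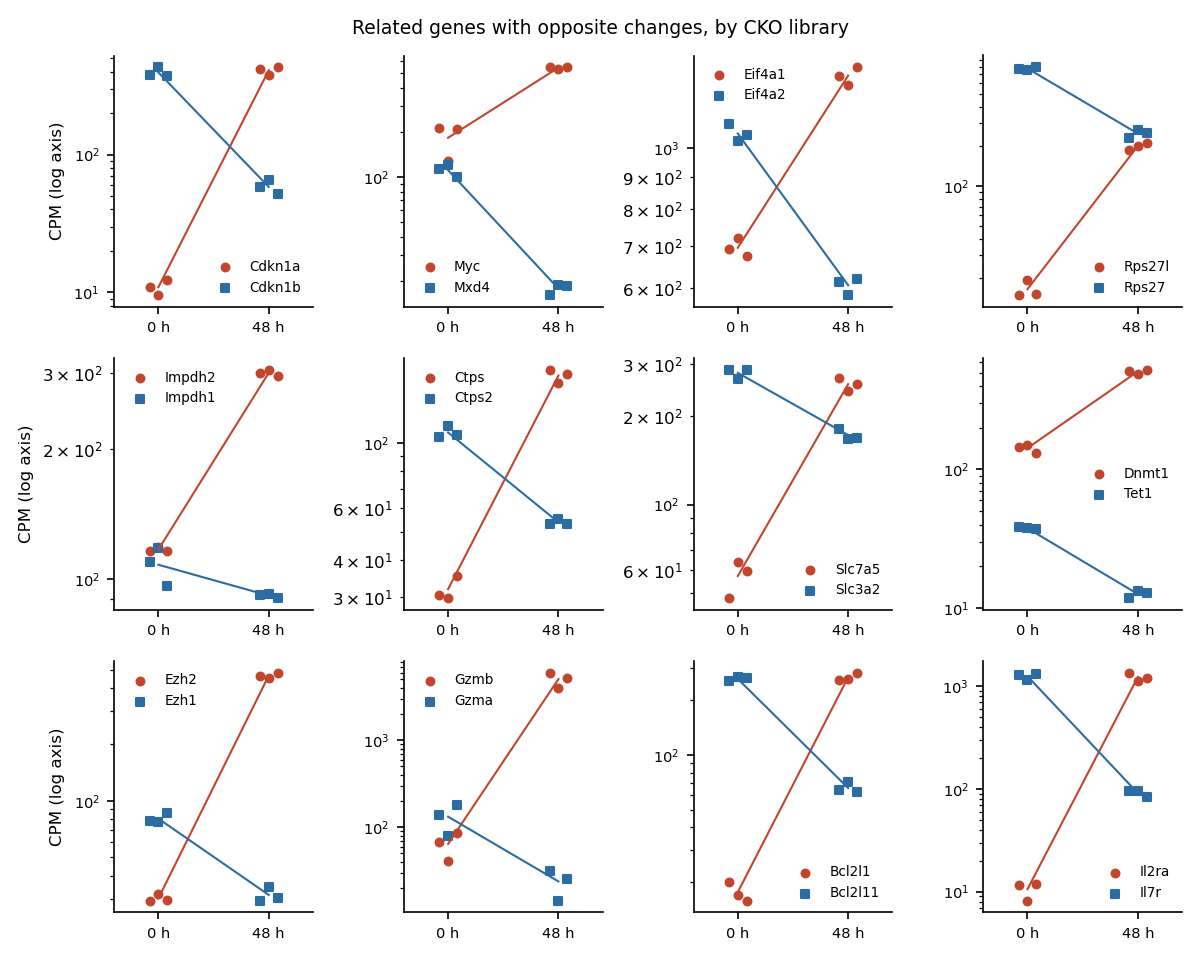
Levels in CPM (log axis) of 12 pairs of related genes in each CKO library at 0 h and 48 h, with lines through the group means. The pairs were chosen after their values were seen, and the red gene of each rose while the blue gene fell. Cdkn1a and Cdkn1b, Eif4a1 and Eif4a2, and Ezh2 and Ezh1 changed rank between times.

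Most secreted cytokines rose. Of 21 tested cytokines 15 rose and 5 fell. Ifng went from 18.1, 6.72 and 20.8 CPM at 0 h to 625, 419 and 645 CPM at 48 h, Tnf from 4.79, 2.42 and 3.35 CPM at 0 h to 65.6, 64.1 and 79.2 CPM at 48 h, and Lif, a cytokine of the IL-6 family, from 5.102, 2.85 and 5.36 CPM at 0 h to 325, 248 and 296 CPM at 48 h. Ifng at 0 h was lowest in replicate 2, and the times did not overlap. The change of Ifng was 4.86 without that library. With all libraries the changes were 5.21 ± 0.47, 4.3 ± 0.39 and 6.03 ± 0.27 (edgeR adjusted p = 1.37e-05, 3.26e-06 and 1.08e-08). Csf2 (GM-CSF) rose by 7.16 ± 0.82, from a mean of only 0.081 CPM at 0 h, and Lta by 4.14 ± 0.13. Il3 was at 0 counts in each 0 h library and 14.6, 9.99 and 10.7 CPM at 48 h, at least 192-fold higher. Ltb, which shapes lymphoid tissue, fell by 1.18 ± 0.10, and Il16 by 0.79 ± 0.08. Among chemokines Xcl1, which attracts cross-presenting dendritic cells, went from 8.61, 4.904 and 11.7 CPM at 0 h to 169, 198 and 193 CPM at 48 h (4.47 ± 0.51), Ccl3 rose by 3.46 ± 0.55 and Ccl4 by 2.45 ± 0.46 (3.05 and 2.11 without replicate 2 at 0 h). Ccl5 went the other way, from 94.7, 66.6 and 109 CPM at 0 h to 8.68, 9.44 and 9.16 CPM at 48 h (-3.31 ± 0.42, edgeR adjusted p = 8.52e-05).

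Among killer genes Gzmb (granzyme B) went from 67.1, 40.4 and 85.6 CPM at 0 h to 6007, 4015 and 5147 CPM at 48 h, a change of 6.3 ± 0.30 (edgeR adjusted p = 2.95e-07), and 6.06 without replicate 2 at 0 h. At 48 h its own replicate 2 was the lowest library. Gzma went from 139, 79.3 and 179 CPM at 0 h to 31.7, 14.2 and 25.7 CPM at 48 h, and Prf1 (perforin, the pore that admits granzymes) from 112, 97.8 and 116 CPM at 0 h to 45.5, 33.04 and 41.6 CPM at 48 h. Both fell, by 2.47 ± 0.42 and 1.44 ± 0.11 (edgeR adjusted p = 0.000718 and 5.23e-09). Ctsw, a protease of killer cells, fell by 2.66 ± 0.08, Srgn, the granule proteoglycan, by 0.90 ± 0.11, and Gzmk by 3.93 ± 0.57. Gzmc rose by 3.64 ± 0.64, to 6.83, 5.05 and 7.34 CPM. The serpins that protect killers from their own granzymes rose: Serpinb9 by 3.12 ± 0.21 and Serpinb6b by 3.9 ± 0.21. In all 9 of 18 granule genes rose and 7 fell, against 38.5% higher and 39.2% lower over all tested genes, and the group sum went from 2060.1 ± 171 CPM to 7499.9 ± 1185 CPM. The natural killer markers Ncr1, Klrb1c and Klra8 fell by 4.08 ± 0.29, 3.67 ± 0.29 and 5.14 ± 0.28 over the same time, and their part in the lower Gzma, Prf1 and Ccl5 was not tested.

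Homing receptors fell more often than they rose, 20 against 5 of 30 (median -1.08). S1pr1, needed to leave lymphoid organs, went from 1317, 1723 and 1446 CPM at 0 h to 17.2, 20.3 and 18.4 CPM at 48 h, and Cxcr4, which holds cells in bone marrow, from 756, 754 and 716 CPM at 0 h to 29.9, 27.6 and 21.6 CPM at 48 h. Ccr7, which guides cells into lymph nodes, went from 1812, 1725 and 1756 CPM at 0 h to 766, 911 and 825 CPM at 48 h. At 48 h S1pr1 and Cxcr4 stood at 1.24% and 3.55% of their 0 h mean and Ccr7 at 47.3%, at changes of -6.33 ± 0.11, -4.82 ± 0.12 and -1.08 ± 0.10. Cd69, which retains cells in tissue, fell by 1.08 ± 0.17, and Itga4 by 2.12 ± 0.12. Cd44, the classic activation marker, went from 45.5, 25.01 and 41.5 CPM at 0 h to 411, 373 and 451 CPM at 48 h (3.46 ± 0.28, edgeR adjusted p = 4.98e-06), and Ccr4 rose by 3.38 ± 0.42. Itgal (LFA-1) was not called (-0.09 ± 0.07).

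Of the BCL2 family Bcl2l1 (BCL-XL) went from 20.04, 16.8 and 15.7 CPM at 0 h to 259, 261 and 285 CPM at 48 h (3.94 ± 0.10, edgeR adjusted p = 1.64e-16) and the killer Bcl2l11 (BIM) from 254, 268 and 266 CPM at 0 h to 63.9, 71.02 and 62.3 CPM at 48 h (-2.0 ± 0.08). Bcl2 rose by 0.27 ± 0.06, Bax by 2.1 ± 0.08, and Mcl1 fell by 0.19 ± 0.06 (-0.13 and not called without replicate 2 at 0 h), while Bbc3 (PUMA) was not called. Of 30 chromatin genes 18 rose and 11 fell, against 38.5% higher and 39.2% lower over all tested genes. Uhrf1 and Dnmt1, which copy DNA methylation, rose by 5.3 ± 0.09 and 1.84 ± 0.08, and Tet1, Tet2 and Tet3, which remove it, fell by 1.58 ± 0.22, 0.90 ± 0.11 and 0.97 ± 0.11. Ezh2, the Polycomb methyltransferase of dividing cells, went from 29.3, 31.8 and 29.6 CPM at 0 h to 462, 449 and 482 CPM at 48 h and its relative Ezh1 from 78.4, 76.96 and 85.7 CPM at 0 h to 29.3, 34.8 and 30.5 CPM at 48 h (3.94 ± 0.06 and -1.35 ± 0.08). Kdm6b, which erases that mark, fell by 2.04 ± 0.18. Of 27 interferon-response genes 16 rose and 4 fell, against the same shares over all tested genes. Gbp5 and Iigp1 rose by 3.98 ± 0.08 and 3.73 ± 0.19, Irf7 fell by 1.6 ± 0.18, and Irf1 (0.00 ± 0.19) and Ifit1 (0.43 ± 0.34) were not called. Among long RNAs Malat1 and Neat1, both kept in the nucleus, went from 1529, 1469 and 2135 CPM at 0 h to 209, 280.1 and 277 CPM at 48 h and from 627, 479 and 566 CPM at 0 h to 60.3, 76.3 and 57.6 CPM at 48 h (-2.74 ± 0.30 and -3.11 ± 0.15), and Mir155hg, the host of miR-155, rose by 3.48 ± 0.08. Of the 7 sirtuins Sirt1 and Sirt7 fell by 0.63 ± 0.07 and 1.02 ± 0.07, Sirt6 rose by 0.42 ± 0.12, and the other 4 were not called.

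The last comparison asked where the CKO response differed from that of WT cells under the same stimulation. The difference itself was tested in the same fit. It was above the WT response for 97 genes (0.609% of those tested) and below it for 123 (0.772%). These counts depend on single libraries. Leaving out replicate 3 of CKO at 48 h gave 43 and 72, leaving out replicate 3 of CKO at 0 h gave 61 and 77, and leaving out replicate 1 of WT at 48 h gave 123 and 207. The count above WT was 64 without replicate 1 of CKO at 0 h, 58 without replicate 1 of CKO at 48 h, 59 without replicate 2 of WT at 0 h or at 48 h, and 61 without replicate 3 of WT at 48 h. Among the 1059 tested members of all groups, 30 were called, most of which are named here. Of these 30, 28 had the same sign of change in both genotypes. The share over all tested genes is not given here, so this count does not set the 30 apart. The text names 37 genes whose responses differed, in these groups and outside them, and of these 18 were called with each of the 12 libraries left out in turn. The calls of Aurka, Cd6, E2f2, Exo1, Gimap8, Hdac5, Ikzf3, Inhba, Kif11, Mcl1, Nuf2, Perp, Pfkp, Samhd1, Slc38a2, Stat4, Tef, Vegfa and Zfp36l1 were each lost in 1 to 10 of the 12 cases, with their direction kept.

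Several mitotic genes had a smaller log2 rise in CKO, a difference that depends on the 0 h levels as well as on those of 48 h. Kif18b reached 73.7 ± 5.604 CPM at 48 h in CKO and 76.5 ± 2.66 CPM in WT, from 1.67 ± 0.267 and 0.49 ± 0.162 CPM at 0 h (SD, n = 3). The 48 h levels were thus close and the 0 h levels apart, and the difference of the responses was -1.83 ± 0.29 (edgeR adjusted p = 0.00098). Kif11, Kifc1 and Nuf2 differed by -1.01 ± 0.21, -0.98 ± 0.18 and -0.97 ± 0.23 (edgeR adjusted p = 0.0287, 0.00593 and 0.0367). Psrc1, a spindle protein, stood at 1.32 ± 0.231 and 157 ± 7.36 CPM in CKO and 0.355 ± 0.105 and 170.1 ± 7.65 CPM in WT, a difference of -2.01 ± 0.29 (edgeR adjusted p = 0.000379), and Pimreg, another mitotic gene, of -2.46 ± 0.51. The group was not uniform: Aurka and Exo1 had a CKO response above that of WT (0.67 ± 0.15 and 0.99 ± 0.24), and Cdk1, Ccnb1 and Plk1 were not called (-0.81 ± 0.35, -0.17 ± 0.23 and 0.12 ± 0.23).

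Other members rose less or fell further in CKO. Scd2 was at 88.4 ± 5.34 CPM at 0 h and 1615 ± 98.4 CPM at 48 h in CKO, and at 47.6 ± 2.44 and 1589 ± 41.6 CPM in WT. The 0 h levels were apart and the 48 h levels close, with -0.87 ± 0.09 between the responses (edgeR adjusted p = 3.21e-05). Pdk1 differed by -0.57 ± 0.09, Slc3a2 by -0.55 ± 0.11, Pfkp by -0.43 ± 0.10, Elovl5 by -0.50 ± 0.08 and Slc38a2 by -0.40 ± 0.08. Pim2 differed by -0.62 ± 0.11, Bcl2l11 by -0.58 ± 0.11 and E2f2 by -0.86 ± 0.19. Samhd1, which breaks down deoxynucleotides, differed by -0.51 ± 0.11, the Ikaros-family factor Ikzf3 by -0.44 ± 0.11, the mRNA-decay factor Zfp36l1 by -0.65 ± 0.15 and the deacetylase Hdac5 by -0.74 ± 0.15. Gimap8 differed by -0.38 ± 0.09 and Tef, a clock-output factor, by -0.56 ± 0.11. Gbp6, of the guanylate-binding proteins, was at 113 ± 9.99 and 108 ± 13.7 CPM in CKO and 62.95 ± 11.3 and 118 ± 7.79 CPM in WT, a difference of -0.97 ± 0.17 (edgeR adjusted p = 0.0135). Vegfa, the blood-vessel growth factor, rose by 0.89 ± 0.24 in CKO and 2.87 ± 0.27 in WT, with 0 h levels of 22.2 ± 7.53 and 7.42 ± 2.22 CPM. Ddr1, a collagen receptor, was at 10.9 ± 0.907 CPM at 0 h in CKO and 0.275 ± 0.0862 CPM in WT, with -2.93 ± 0.36 between its responses (edgeR adjusted p = 4.08e-05).

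Genes that rose more or fell less in CKO included Nfkb1, which reached 867 ± 76.2 CPM in CKO and 582 ± 6.44 CPM in WT from 257 ± 11.1 and 269.8 ± 10.2 CPM. The difference was 0.64 ± 0.09 (edgeR adjusted p = 0.000668). Alcam (CD166), an adhesion molecule that binds CD6, stood at 106 ± 8.21 CPM in CKO and 66.3 ± 4.098 CPM in WT at 48 h, from 2.89 ± 0.536 and 6.28 ± 1.31 CPM at 0 h, a difference in response of 1.8 ± 0.19 (edgeR adjusted p = 3.5e-05), and Cd6 itself differed by 0.40 ± 0.09. Mir155hg differed by 0.77 ± 0.12 and Marcks, a membrane-actin linker, by 1.51 ± 0.22. Inhba, which encodes a subunit of activin, was read at 26.8, 9.93 and 19.8 CPM in the CKO libraries of 48 h and 1.32 ± 0.513 CPM in WT. Replicate 2 was the lowest and replicate 1 the highest. The difference of the responses was 4.96 ± 1.09 (edgeR adjusted p = 0.0285), and it depends also on the 0 h levels, which are not printed here. Perp, an apoptosis and adhesion gene, differed by 1.34 ± 0.28, Stat4 by 0.42 ± 0.10 and Mcl1 by 0.37 ± 0.08. For the naive factors Tcf7, Klf2 and Foxo1 and for Il2ra and Gzmb no difference was called (-0.22 ± 0.11, -0.29 ± 0.23, -0.08 ± 0.09, -0.59 ± 0.17 and -0.79 ± 0.42), which does not show that the responses were equal.

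**Figure D5:**
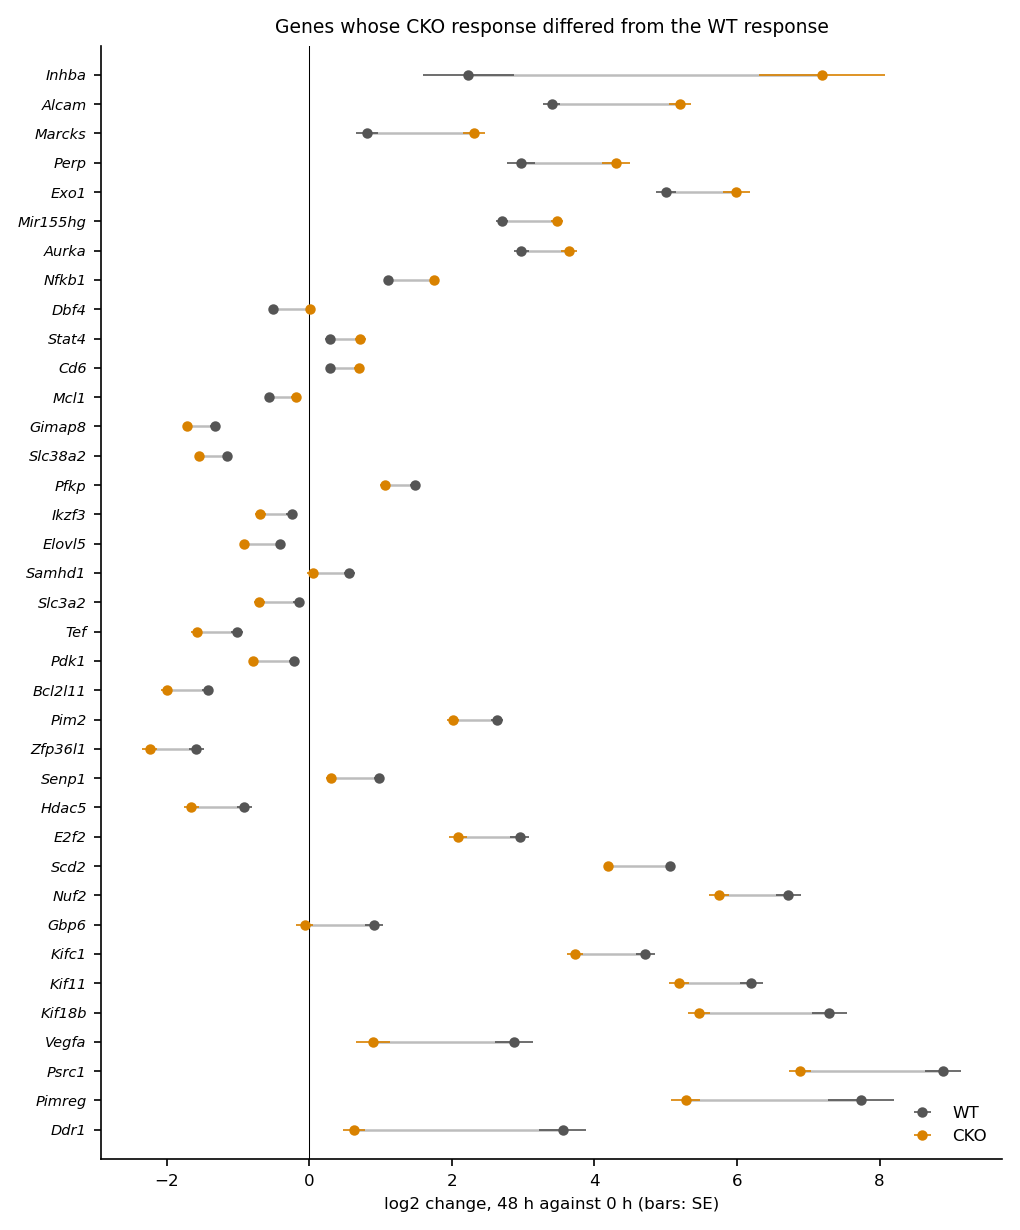
Log2 change of 48 h against 0 h (horizontal axis, bars are the SE) in WT (grey) and CKO (orange) for the 37 genes named here whose responses differed, ordered from the highest CKO response relative to WT (Inhba) to the lowest (Ddr1). Most pairs of points lie on the same side of 0.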

How the data were processed

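RNA of the 12 libraries was extracted with TRIzol and prepared with the TruSeq Stranded mRNA kit, per the labels' protocols. The deposited table holds the authors' read counts per gene, whole numbers with no normalization. The submitters' processing notes name cutadapt, HISAT2 2.2.1, DESeq2 and build GRCm39. For the counting program, annotation and strand setting the entry is: not given in the sources used here. Antisense and overlapping genes are therefore uncertain. IDs without a symbol held 0.249% of counts.

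All 12 libraries were fitted together in edgeR 4.0.16 (R 4.3.3; filterByExpr, TMM, robust quasi-likelihood, 8 residual degrees of freedom), with contrasts CKO 48 h against 0 h and CKO against WT response. Standard errors are Wald errors from that fit. The fit was run on simulated counts (15014 genes) with 200 genes changed, all in CKO at 48 h and none with very low counts. In the CKO contrast it recovered 20%, 60%, 70% and 98% of changes of 1.25, 1.5, 2 and 4 times, with 8 false among 132 calls. Far more genes were called in the data, and recovery with so many changed genes was not tested. Exon lengths are from GENCODE gene models and promoters from RefSeq, both of GRCm38.

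Members and lists were chosen with earlier results of these data known. Named are Senp1, the 12 largest changes per direction, anchor genes and the largest movers of each list, and genes whose responses differed. The 12 were called genes with a mean of at least 10 CPM in the higher group. They also had more than 3 summed counts in the lower group and no overlap between libraries. Only a part of the named genes is printed, and some results are not reported here. Alternatives were other scalings, filters, DESeq2 1.42.0, thinning, replicate blocks, a log2 threshold of 1 and leaving out libraries.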

Additional observations from a re-analysis of the deposited data

Results flagged for a closer look

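Genes are given here because the CKO response differed from the WT response by the test of the difference itself (edgeR adjusted p under 0.05). Values are log2 differences, CKO minus WT. Among cell-cycle genes they were -1.01 for Kif11, -1.83 for Kif18b, -0.98 for Kifc1, -0.97 for Nuf2, -2.01 for Psrc1, -2.46 for Pimreg, -0.86 for E2f2, 0.67 for Aurka, 0.99 for Exo1 and 0.52 for Dbf4. Among metabolic genes they were -0.57 for Pdk1, -0.43 for Pfkp, -0.87 for Scd2, -0.50 for Elovl5, -0.55 for Slc3a2 and -0.40 for Slc38a2. Among signalling and survival genes they were 0.64 for Nfkb1, 0.77 for Mir155hg, 0.42 for Stat4, -0.62 for Pim2, -0.58 for Bcl2l11, 0.37 for Mcl1, -0.44 for Ikzf3, -0.65 for Zfp36l1, -0.38 for Gimap8 and -0.97 for Gbp6. They were -0.51 for Samhd1, -0.74 for Hdac5 and -0.56 for Tef. For surface and secreted proteins they were 1.8 for Alcam, 0.40 for Cd6, -2.93 for Ddr1, 4.96 for Inhba, -1.98 for Vegfa, 1.34 for Perp and 1.51 for Marcks. Senp1, the deleted gene, differed by -0.67. The calls of Gbp6 (-1.03), Exo1 (0.88), Inhba (5.25) and Vegfa (-1.71) were lost when replicate 1 of WT was left out at both times.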

How the results depend on the processing

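Counts of called genes kept within 1.5 times the main count for the CKO response except with a log2 change of at least 1 in the test, which left 2805 higher and 2955 lower and no call of Senp1 (0.30). Leaving out single libraries gave 5966 to 6289 higher, 5948 to 6478 lower and Senp1 changes of 0.27 to 0.35. Responses above and below that of WT were fewer or more by setting: 223 and 353 without a count filter, 207 and 224 in DESeq2, 1 and 6 with the log2 threshold, 43 to 123 and 72 to 207 with single libraries left out, and 227 below without replicate 1 of WT at both times. The cause was not tested. Same-numbered libraries of the 2 times correlated at 0.0424, 0.0479 and 0.0562 in CKO and 0.162, 0.156 and 0.0623 in WT in their deviations from the group means. Not every pair was over 0.1, so they were taken to share only a number, although each correlated best with its own number. That cut does not show that the libraries were unpaired. With a replicate block the counts were 6148 and 6240 in CKO and 133 and 148 against WT. With a replicate block within each genotype, 175 were above WT and 175 below it. The difference of Vegfa was not called with the replicate block (edgeR adjusted p = 0.0512) or with it within each genotype (0.14), nor that of Kif11 with the replicate block (0.0535), nor that of Zfp36l1 with it within each genotype (0.175). Of 315 printed gene changes 5 lost their call under some setting other than the log2 threshold, and none changed sign while called. That count is favourable by choice: Ccnd3, Il2rb, Rplp0, Satb1, Scd1, Stim2 and Zap70, whose calls were lost under at least 1 setting, were left out of the text after this had been seen. The uncalled Bach2, Cd274, Cd4, Il21r, Itgal, Prdm1, Taldo1 and Tigit gained a call under at least 1 setting. In the simulation of the response difference 8% of changes under 1.5 times, 34% of changes of 1.5 times and 88% of changes of 4 times were recovered. Thinned to the smallest library, 5973 rose and 6160 fell in CKO, and 94 were above and 123 below WT.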
